A study of Mus musculus with 9 samples.

Results

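Cytotoxic effector genes and genes for serpins that inhibit granzymes were followed in CD11b+ cells from mouse gliomas. The set was chosen by name, with earlier results of these data known. The study already reports Gzma, Prf1, Nkg7, Ifng, Tbx21, Serpinb6b and Serpinb9b as raised under anti-PD-1 or the combination in these same libraries. Counts among the 10 genes beside shares of all genes are therefore descriptive and no independent support. It holds the granule genes Gzma, Gzmb, Prf1 and Nkg7, the cytokine gene Ifng, the transcription factor genes Tbx21 and Eomes, and the serpin genes Serpinb9, Serpinb6b and Serpinb9b. All 10 were matched by Ensembl identifier among the 53801 genes of the count table. All 10 are protein-coding and were among the 12538 protein-coding genes with enough counts to be tested.

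Male C57BL/6J mice of 10 to 12 weeks were implanted with GL261 cells, a mouse glioma line carrying tdTomato and luciferase, and CD11b+ cells were sorted from the tumor-bearing hemispheres for RNA sequencing. OAT-1746 is an arginase inhibitor that enters the brain, and anti-PD-1 is an antibody against the checkpoint receptor PD-1. The 4 groups let the effect of each agent be compared with CTR and with the combination. The cells were collected on day 28 by the study's methods and on day 21 by a legend. CTR mice (2 libraries) received vehicle. OAT-1746 mice (2 libraries) received 50 mg/kg by oral gavage 2 times a day from day 1. Anti-PD-1 mice (2 libraries) received antibody by intraperitoneal injection of 2.5 mg/kg, first on day 8, then on days 10 and 12, and last on day 14. COMB mice (3 libraries) received both agents at these doses. The methods call the libraries biological replicates. The labels do not say how many animals gave each, and p-values measure only the spread between samples if these are not separate animals. Libraries held between 13048075 and 18796479 counts.

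Cytotoxic lymphocytes store granzymes with perforin in secretory granules. Perforin opens a way into the target cell, and granzymes then cleave proteins inside it and start cell death. Serpins of clade B are intracellular proteins that trap proteases, and some of them guard granule-bearing cells and their neighbours against escaped granzymes.

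Itgam, which encodes the sorted marker CD11b, had 302 and 370 CPM in CTR, 445 and 446 in OAT-1746, 294 and 327 in anti-PD-1, and 366, 307 and 328 in COMB. CPM are counts scaled to library size with TMM factors. OAT-1746 replicate 2 stood apart from the other libraries. Across the tested genes its Pearson's r with any other library did not exceed 0.956, whereas each of the other libraries reached at least 0.976 with one of them. The summed level of 7 monocyte or macrophage markers was 2123 and 2453 CPM in CTR, 2309 and 369.8 in OAT-1746, 2538 and 2889 in anti-PD-1, and 1573, 1607 and 1801 in COMB. OAT-1746 replicate 2 thus had the lowest sum, and Fn1 was the most abundant gene of the list. Where comparisons rest on OAT-1746 libraries, edgeR counts among the 10 genes and main fold changes are therefore given with and without replicate 2. DESeq2 counts, and counts of genes with every library above or below, are given with all libraries only.

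The promoters of the 4 granule genes are shown because these genes moved together over the libraries. All 10 genes had an entry in the RefSeq promoter table (GRCm38.p6). The 250 bases before the RefSeq start were searched on both strands for a T-box word (AGGTGTGA), an AP-1 word (TGANTCA), a GAS word (TTCNNNGAA) and the Runx word TGTGGT, the last chosen after the sequences were seen. The Runx word was found in the windows of Gzma, Gzmb, Prf1 and Nkg7 and in none of the other 6, and in 14% of the 32851 promoters of the table. The T-box word was found for Nkg7 (1.12% of all promoters), the AP-1 word for Gzmb (6.75%) and the GAS word for Nkg7 and Ifng (7.02%). A match describes letters only. The printed stretches end before both the RefSeq and the GENCODE start, on build GRCm38, at chr13:113100982-113101231 (minus strand), chr14:56262335-56262584 (minus strand), chr10:61297586-61297832 (plus strand) and chr7:43436888-43437072 (plus strand). Capitals mark the matches. The T-box match of Nkg7, which begins 14 bases before the RefSeq start, lies after the GENCODE start and is not printed.
Gzma: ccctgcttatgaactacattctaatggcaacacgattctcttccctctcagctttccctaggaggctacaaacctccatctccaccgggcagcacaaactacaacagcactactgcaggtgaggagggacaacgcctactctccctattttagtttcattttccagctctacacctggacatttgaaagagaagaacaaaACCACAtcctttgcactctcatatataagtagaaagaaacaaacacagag
Gzmb: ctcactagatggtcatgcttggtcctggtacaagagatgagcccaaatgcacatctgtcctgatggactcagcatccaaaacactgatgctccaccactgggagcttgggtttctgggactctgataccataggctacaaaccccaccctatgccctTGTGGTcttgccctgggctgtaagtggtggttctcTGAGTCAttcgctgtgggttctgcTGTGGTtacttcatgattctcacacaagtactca
Prf1: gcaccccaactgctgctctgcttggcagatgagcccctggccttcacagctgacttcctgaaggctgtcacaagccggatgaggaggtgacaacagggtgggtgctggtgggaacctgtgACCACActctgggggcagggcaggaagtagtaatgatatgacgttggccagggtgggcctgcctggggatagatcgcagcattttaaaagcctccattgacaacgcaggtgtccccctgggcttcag
Nkg7: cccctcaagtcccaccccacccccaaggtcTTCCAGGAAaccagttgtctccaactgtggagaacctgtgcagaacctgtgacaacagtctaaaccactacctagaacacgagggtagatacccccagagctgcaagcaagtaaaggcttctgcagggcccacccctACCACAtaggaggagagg

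Gzma encodes granzyme A, a tryptase of cytotoxic granules (ENSMUSG00000023132, chr13:113093825-113100981). Its level was 16.0 and 16.6 CPM in the CTR libraries, 23.7 and 7.61 in OAT-1746, 106 and 49.9 in anti-PD-1, and 23.3, 52.8 and 54.1 in COMB. Both anti-PD-1 libraries and all 3 COMB libraries lay above both CTR libraries, while the OAT-1746 libraries lay on either side of them. Gzmb encodes granzyme B, which cleaves after aspartate and activates caspases (ENSMUSG00000015437, chr14:56258838-56262260). It had 12.3 and 9.12 CPM in CTR, 22.9 and 3.61 in OAT-1746, 59.2 and 36.1 in anti-PD-1, and 13.1, 36.1 and 39.5 in COMB. COMB replicate 1 lay just above the higher CTR library and below OAT-1746 replicate 1.

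Prf1 encodes perforin (ENSMUSG00000037202, chr10:61297833-61304680). Its level was 10.01 and 2.75 CPM in the OAT-1746 libraries, against 8.29 and 5.23 in CTR, 45.5 and 25.9 in anti-PD-1, and 7.49, 19.3 and 23.0 in COMB. Nkg7 encodes a membrane protein of cytotoxic granules that takes part in their release (ENSMUSG00000004612, chr7:43437073-43438249). It had 3.24 and 2.65 CPM in CTR, 5.76 and 1.72 in OAT-1746, 19.02 and 11.8 in anti-PD-1, and 4.67, 9.63 and 10.7 in COMB. The 4 genes ordered the libraries in a similar way. For each of them OAT-1746 replicate 2 was the lowest library, anti-PD-1 replicate 1 the highest, and COMB replicate 1 the lowest of its group. The Pearson's r between any pair of the 4 over the 9 libraries was at least 0.971, as a description of libraries that share their groups.

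**Figure D1:**
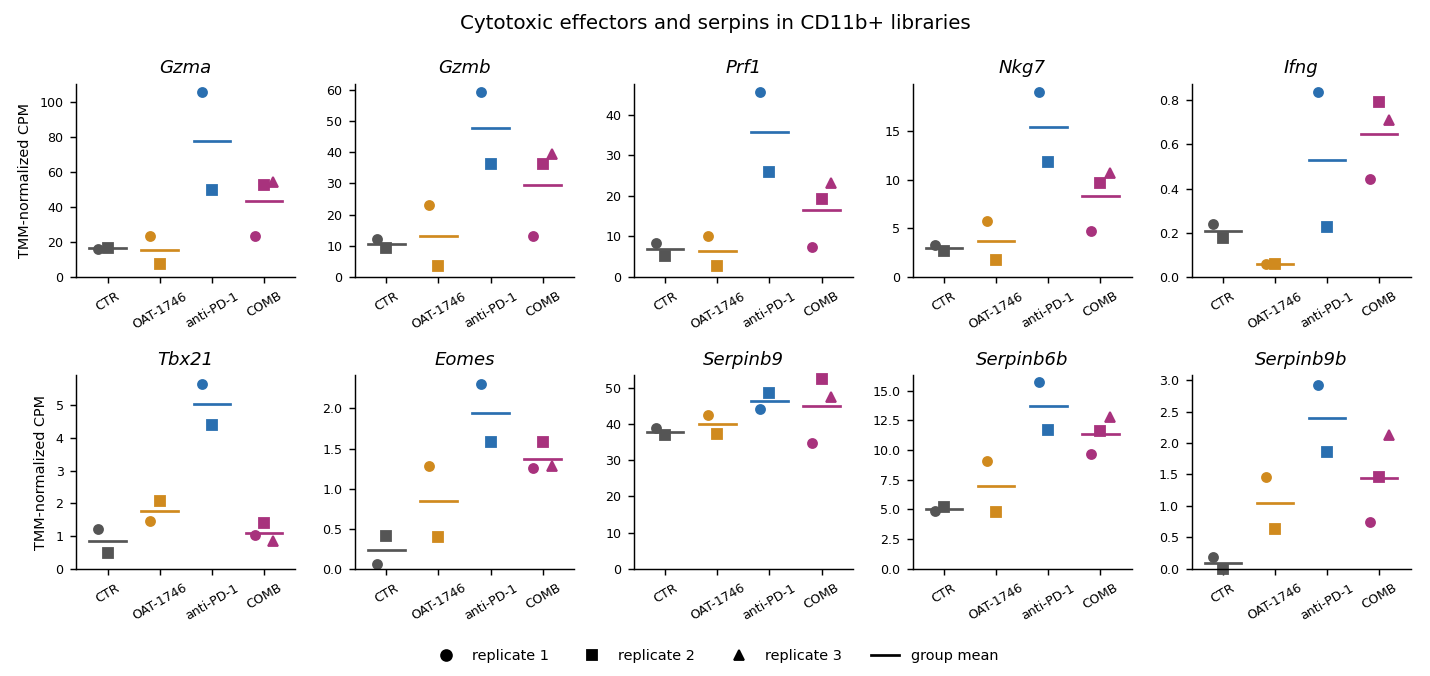
Level of each of the 10 genes (TMM-normalized CPM, linear axis from 0) in the 9 libraries, by group, with a symbol for each replicate and a bar at the group mean. The granule genes and serpins Serpinb6b and Serpinb9b were highest in an anti-PD-1 library, whereas Serpinb9 lay between 34.6 and 52.5 CPM throughout.

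Against CTR, the fitted log2 fold changes under anti-PD-1 lay between 2.15 for Gzmb (standard error 0.75) and 2.40 for Prf1 (standard error 0.64). Without anti-PD-1 replicate 1 they were 1.616 for Gzma, 1.758 for Gzmb, 1.941 for Prf1 and 2.001 for Nkg7. In COMB, with all libraries, the fold changes against CTR lay between 1.30 for Prf1 (standard error 0.59) and 1.501 for Nkg7 (standard error 0.53). COMB was lower than anti-PD-1 by 0.69 to 1.10 on the log2 scale, as fitted differences of -0.69 for Gzmb and -1.10 for Prf1, with standard errors of 0.64 and 0.54. Without anti-PD-1 replicate 1 these differences were smaller, at -0.202 for Gzma, -0.287 for Gzmb, -0.643 for Prf1 and -0.498 for Nkg7. Every COMB library lay below both anti-PD-1 libraries for Prf1 and Nkg7, and the groups overlapped for Gzma and Gzmb. The 2 OAT-1746 libraries gave opposite answers. With both, the log2 fold changes against CTR were -0.06 for Gzma, 0.31 for Gzmb, -0.08 for Prf1 and 0.34 for Nkg7. Without OAT-1746 replicate 2 they were 0.55, 1.11, 0.58 and 0.98, and without replicate 1 they were -1.10, -1.57, -1.30 and -0.78. In bulk samples such as these, fewer cells of a type and less RNA per cell cannot be told apart.

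Of the 10 genes, 0 passed a Benjamini-Hochberg adjusted p of 0.05 between anti-PD-1 and CTR in edgeR's quasi-likelihood test, as did 0% of the 12538 genes tested. At an unadjusted p under 0.05, 8 of the 10 were higher under anti-PD-1 (all but Ifng and Serpinb9), against 3.18% of all genes. DESeq2 called 5 of the 10 (Gzma, Nkg7, Tbx21, Serpinb6b and Serpinb9b), against 0.112% of all genes, and 9 of the 10 had both anti-PD-1 libraries above both CTR libraries, against 20.6%. The median log2 fold change of the 10 genes was 2.32, and that of all genes 0.02. Genes the study had already found changed in these libraries are among the 10, so that these counts are no independent support. Eomes and Serpinb9b were under the low-count filter's cutoff in both CTR libraries and were tested only through treated libraries. Run on all protein-coding genes, a setting added after seeing the data, DESeq2 called 4 of the 10 and no longer Serpinb6b, against 0.0684% of all genes.

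Between COMB and CTR edgeR called 0 of the 10 genes and 0% of all genes. Without adjustment 5 of the 10 were higher in COMB at p under 0.05 (Gzma, Nkg7, Eomes, Serpinb6b and Serpinb9b), against 3.21% of all genes. DESeq2 called Serpinb9b alone among the 10, against 0.279% of all genes, and 7 of the 10 had every COMB library above both CTR libraries, against 12.1%. The median log2 fold change was 1.44 for the 10 genes and -0.00480 for all genes tested. The unadjusted count depended on single libraries, and leaving out 1 library gave between 2 of the 10 without CTR replicate 1, against 2.66% of all genes, and 8 of the 10 without COMB replicate 1, against 3.41%. In each of these fits edgeR again called 0 of the 10 and 0% of all genes. The comparisons of anti-PD-1 and of COMB share the CTR libraries, so that their values stand side by side and are not independent.

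Between COMB and anti-PD-1 edgeR called 0 of the 10 genes and 0% of all genes. Tbx21 alone, 1 of the 10, was lower in COMB at an unadjusted p under 0.05, against 5.26% of all genes, and DESeq2 called the same gene, against 0.375%. The unadjusted count was 4 of the 10 without OAT-1746 replicate 1 (Gzma, Prf1, Nkg7 and Tbx21), against 7.39% of all genes, and 3 of the 10 without OAT-1746 replicate 2 (Prf1, Nkg7 and Tbx21), against 6.5%. Neither fit drops a library of this comparison, which OAT-1746 libraries enter only through the shared spread, filter and scaling. The Gzma estimate was -0.837 without OAT-1746 replicate 1 and -0.823 without replicate 2, against -0.84 with all libraries. All COMB libraries lay below both anti-PD-1 libraries for 3 of the 10 (Prf1, Nkg7 and Tbx21), against 16.4% of all genes. The median log2 fold change was -0.70, and only the Ifng estimate was above 0.

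Between OAT-1746 and CTR edgeR called 0 of the 10 genes and 0% of all genes. At an unadjusted p under 0.05, 1 of the 10 was higher (Serpinb9b), against 16.1% of all genes, and DESeq2 called that gene alone, against 15.9% of all genes. Leaving out OAT-1746 replicate 2, 3 of the 10 were higher at this threshold (Eomes, Serpinb6b and Serpinb9b), against 8.3% of all genes, and edgeR again called 0 of the 10 and 0% of all genes. How the share of the 10 genes stood to that of all genes thus depended on this library. Between COMB and OAT-1746, which gives the effect of the antibody in mice on the inhibitor, edgeR called 1 of the 10 genes (Ifng), against 15.8% of all genes. At an unadjusted p under 0.05, 5 of the 10 were higher in COMB, against 18.3%, and DESeq2 called 2 (Gzma and Prf1), against 24.4%. Without OAT-1746 replicate 2 edgeR called 0 of the 10 in this comparison and 0.21% of all genes, and 1 of the 10 (Ifng) was higher at an unadjusted p under 0.05, against 9.96%. Without replicate 1, when OAT-1746 is represented by replicate 2 alone, it called 5 of the 10 (Gzma, Gzmb, Prf1, Nkg7 and Serpinb6b), against 31.4% of all genes. A lone library is then assumed to vary like those of the other groups.

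For the mean of both antibody groups against the mean of both groups without antibody, edgeR called 0 of the 10 genes and 0.00798% of all genes. With antibody 9 of the 10 were higher at an unadjusted p under 0.05 (all but Serpinb9), against 9.39% of all genes. DESeq2 called 6 of the 10 (Gzma, Prf1, Nkg7, Eomes, Serpinb6b and Serpinb9b), against 2.66%. Serpinb6b was the only one of the 10 with all 5 antibody libraries above all 4 others, which held for 1.67% of all genes. The same 9, without OAT-1746 replicate 2, were higher with antibody at an unadjusted p under 0.05, against 7.12% of all genes, and edgeR called 0 of the 10 and 0.00779% of all genes. For the interaction, the effect of OAT-1746 with antibody minus its effect without, edgeR called 0 of the 10 genes and 0.359% of all genes. At an unadjusted p under 0.05, 2 of the 10 had a negative interaction (Tbx21 and Serpinb9b), against 14.4% of all genes, and DESeq2 called the same 2 genes, against 8.18%. The interaction without OAT-1746 replicate 2 was negative at this threshold for 7 of the 10 (Gzmb, Prf1, Nkg7, Tbx21, Eomes, Serpinb6b and Serpinb9b), against 9.22% of all genes, and edgeR called 0 of the 10 and 0.203% of all genes. Without OAT-1746 replicate 1, 4 of the 10 interaction estimates lay above 0, against 1 with all libraries. Those of Gzma, Gzmb and Prf1 were then 0.267, 0.888 and 0.204. For antibody against no antibody, the log2 fold changes of Gzma, Gzmb, Prf1 and Nkg7 were 2.383, 2.596, 2.497 and 2.330 without this replicate. Without OAT-1746 replicate 2 they were 1.570, 1.267, 1.571 and 1.464. No estimate of the 10 genes for anti-PD-1 against CTR, or for antibody against no antibody, changed sign under the alternatives tried.

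**Figure D2:**
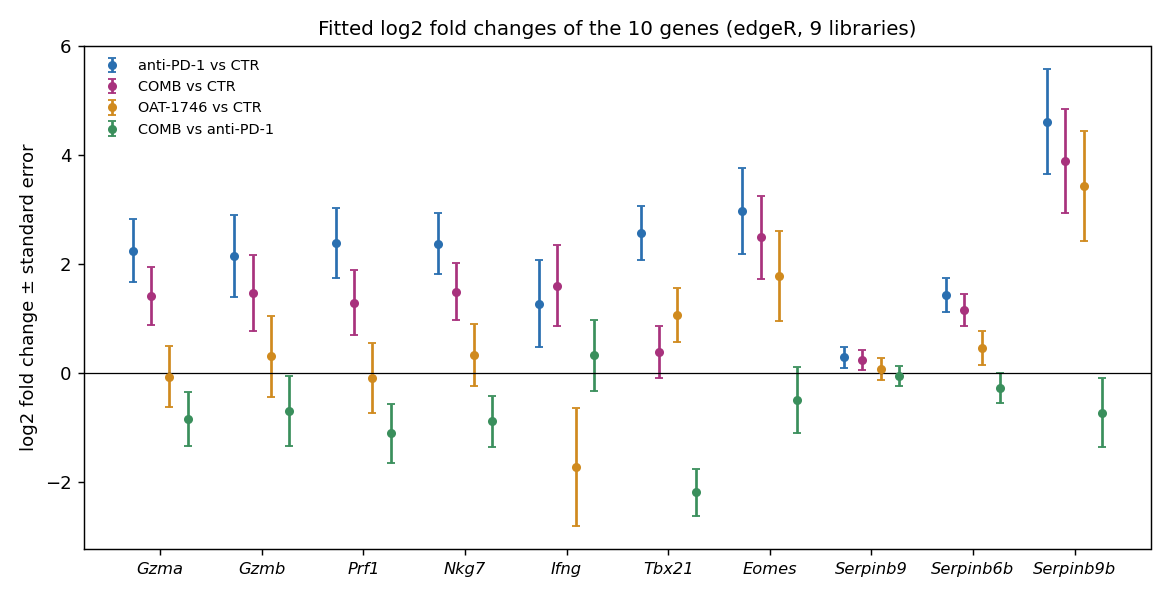
Fitted log2 fold changes of the 10 genes (points) with their standard errors (bars) for anti-PD-1, COMB and OAT-1746 against CTR and for COMB against anti-PD-1, from a common edgeR fit of the 9 libraries. Tbx21 had a log2 fold change of 2.58 under anti-PD-1 and of 0.39 in COMB, and the estimate of Serpinb9b rests on 3 counts in CTR. With 1 library left out, the Tbx21 values ran from 2.048 to 3.392 under anti-PD-1 and from -0.138 to 1.229 in COMB.

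Levels of different genes were compared in TPM, a scale that divides counts by exon length. In CTR the order was Gzma with 44.7 ± 1.22 TPM (SD, n = 2), Serpinb9 with 29.95 ± 1.16 (SD, n = 2) and Gzmb with 20.5 ± 4.30 (SD, n = 2). Nkg7, Prf1 and Serpinb6b followed with 8.89, 7.22 and 6.16 TPM (SD of Prf1 2.32). Nkg7 was the highest of these in both CTR libraries, and the order of Prf1 and Serpinb6b differed between them. Tbx21, Ifng, Eomes and Serpinb9b had mean levels under 1 TPM. Under anti-PD-1 the order at the top was Gzma with 207 ± 103 TPM (SD, n = 2) and Gzmb with 89.1 ± 29.4 (SD, n = 2). Gzma was above Gzmb within each anti-PD-1 library, at 280 against 110 TPM in replicate 1 and 135 against 68.3 in replicate 2. Nkg7, Prf1 and Serpinb9 then stood at 45.2, 37.1 and 35.8 TPM, within the SD of Nkg7 (14.4), and their order differed between the libraries. In anti-PD-1 replicate 1 the TPM of Serpinb9 was the lowest of these genes, and in replicate 2 the highest. In COMB the means were 113 TPM for Gzma, 53.8 for Gzmb, 33.9 for Serpinb9 and 23.9 for Nkg7, with SDs of 41.1, 24.4, 5.14 and 8.37 (n = 3).

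Natural killer (NK) cells carry these granules, and a list of NK cell markers that holds none of the 10 genes was set beside them. At an unadjusted p under 0.05, anti-PD-1 was above CTR for 12 of its 21 tested genes, COMB for 5, and neither was below CTR for any, with median log2 fold changes of 1.79 and 0.35. edgeR called 0 of them in either comparison. The summed level of the 22 genes found was 131 and 134 CPM in CTR, 107 and 30.4 in OAT-1746, 281 and 194 in anti-PD-1, and 109, 157 and 165 in COMB. Klrk1 was the most abundant gene, and no gene of the list was at 0 in every library. Among genes of the list with a mean of at least 1 CPM, the largest fold changes under anti-PD-1 were those of Klre1 (log2 3.98), Klra8 (2.83), Itga2 (2.76) and Klra9 (2.51). Klrk1, Cd244a and Klrb1b, of which Cd244a is also made by myeloid cells, contributed 78.6% and 75.7% of the sum in CTR and 45.1% and 61.3% in anti-PD-1. Their share was 62.0% and 54.0% in OAT-1746 and 66.3%, 66.7% and 65.2% in COMB, so that every treated library lay below CTR. The part of NK cell numbers in the result was not tested.

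Relative to that sum, Gzma stood at 0.122 and 0.124 in CTR, 0.222 and 0.250 in OAT-1746, 0.377 and 0.257 in anti-PD-1, and 0.213, 0.337 and 0.327 in COMB. Every treated library lay above both CTR libraries on this ratio, OAT-1746 replicate 2 included. A narrower denominator, added after seeing the data, was the sum of Ncr1 and Klrb1c, which encode the NK cell receptors NKp46 and NK1.1. This sum was 5.23 and 4.76 CPM in CTR, 5.94 and 1.89 in OAT-1746, 22.0 and 12.2 in anti-PD-1, and 4.45, 6.401 and 7.30 in COMB. It was thus high in both anti-PD-1 libraries, while COMB replicate 1 lay below both CTR libraries and replicates 2 and 3 above them.

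Gzma per unit of Ncr1 and Klrb1c was 3.06 and 3.49 in CTR, 3.99 and 4.03 in OAT-1746, 4.80 and 4.10 in anti-PD-1, and 5.23, 8.25 and 7.41 in COMB. All 3 COMB libraries were above the 6 others. The 95% interval from counting error alone (exact binomial) ran from 6.67 to 10.3 in COMB replicate 2 and from 6.02 to 9.19 in replicate 3, against 4.25 to 5.44 and 3.53 to 4.78 in anti-PD-1. In COMB replicate 1 it ran from 3.96 to 7.02 and overlapped those of anti-PD-1. Gzmb gave ratios of 2.34 and 1.91 in CTR, 3.86 and 1.91 in OAT-1746, 2.69 and 2.96 in anti-PD-1, and 2.95, 5.64 and 5.41 in COMB. For Prf1 the mean ratio was 1.34 in CTR, 1.57 in OAT-1746, 2.10 in both anti-PD-1 libraries together and 2.62 in COMB, and for Nkg7 these means were 0.588, 0.940, 0.916 and 1.34. The ratio of Prf1 in COMB replicate 1 (1.68) lay below both anti-PD-1 libraries (2.07 and 2.13). On the whole list the groups overlapped for Gzma, and the mean for Gzma was 0.317 under anti-PD-1 and 0.293 under COMB, where replicate 1 was the lowest. Gzmb on the whole list was 0.211 and 0.186 in the anti-PD-1 libraries, and 0.1203, 0.231 and 0.239 in COMB. COMB replicate 1 thus lay below both anti-PD-1 libraries, and replicates 2 and 3 above them. For Prf1 the mean on the whole list was 0.148 under anti-PD-1 and 0.1103 under COMB, and for Nkg7 it was 0.0643 and 0.0564, the other order than with Ncr1 and Klrb1c. With either denominator the group means of both exceeded CTR for the 4 genes. No test was made on these ratios.

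**Figure D3:**
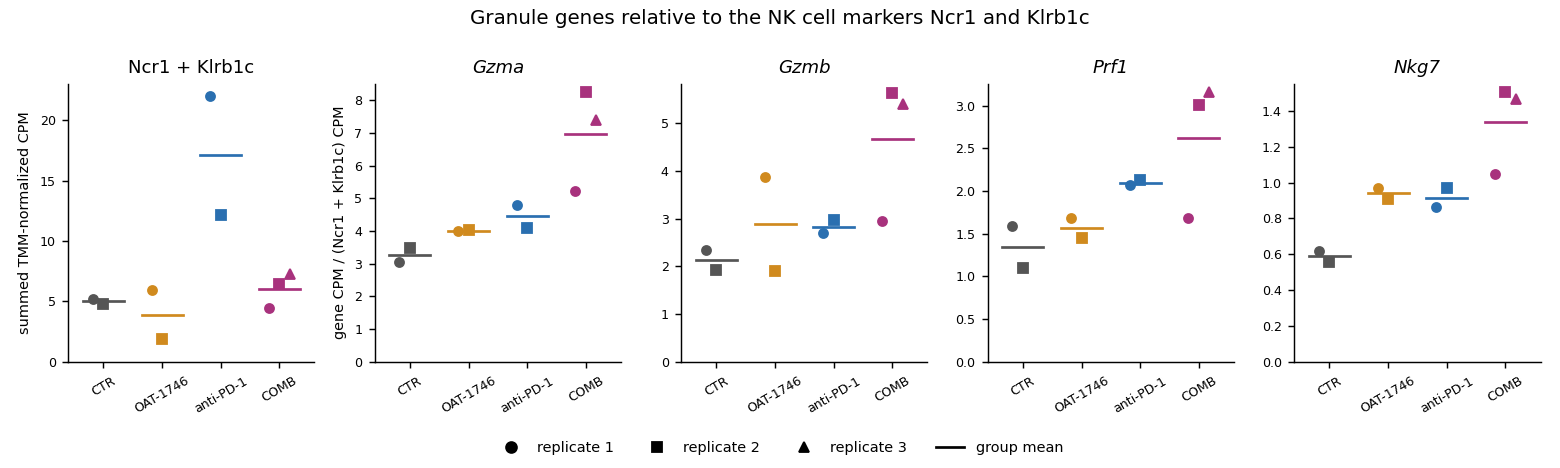
Summed CPM of the NK cell markers Ncr1 and Klrb1c (left panel) and the ratio of Gzma, Gzmb, Prf1 and Nkg7 CPM to that sum (other panels), per library, with group means as bars. COMB replicates 2 and 3 had the highest ratios for each gene, while the marker sum itself was 6.401 and 7.30 CPM there, against 22.0 and 12.2 CPM in anti-PD-1.

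T cells also carry perforin and granzymes, and their defining markers were near 0 in most libraries. Cd3e had 1 and 0 counts in CTR, 0 and 2 in OAT-1746, 4 and 1 in anti-PD-1, and 5, 8 and 7 in COMB. Trac, a T cell receptor gene, had 6 and 4 counts in CTR, 0 and 7 in OAT-1746, 28 and 5 in anti-PD-1, and 16, 10 and 17 in COMB. Both genes were chosen after their values were seen, and both were above CTR in all 3 COMB libraries. Cd4, the most abundant gene of the list, was below both CTR libraries (8.23 and 7.35 CPM) in all 3 COMB libraries (5.86, 4.49 and 5.88). The summed level of the 12 T cell genes was 12.01 and 12.8 CPM in CTR, 13.6 and 16.8 in OAT-1746, 23.9 and 10.5 in anti-PD-1, and 16.1, 12.1 and 14.3 in COMB. At an unadjusted p under 0.05, anti-PD-1 was above CTR for 0 of the 8 tested T cell genes and COMB for 1, with median log2 fold changes of 1.15 and 0.95. Their part in the levels of the granule genes was not tested. The summed level of 8 basophil or mast cell genes, led by Gata2, lay between 0.873 and 6.64 CPM, and Cd22 led the 6 B cell genes, whose sum lay between 38.5 and 58.3 CPM.

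Other granzyme genes had few counts. Gzmd, Gzme, Gzmg and Gzmn had 0 counts in all 9 libraries, where a count of 0 allows up to 3 counts. Gzmm was the most abundant of the 8 other granzyme genes and the only one tested, and the summed level of all 8 lay between 0.353 and 1.06 CPM. Of 15 tested genes for granule assembly and exocytosis, 0 were higher or lower at an unadjusted p under 0.05 under anti-PD-1 or in COMB, with median log2 fold changes of 0.02 and 0.08. Ctsc, the protease that activates granzymes, led this list with 2647 and 2464 CPM in CTR, 1771 and 937 in OAT-1746, 1486 and 2508 in anti-PD-1, and 1848, 3295 and 3163 in COMB. Ctsw, a cathepsin of cytotoxic cells, had a log2 fold change of 1.31 (standard error 0.62) under anti-PD-1, Stx11 0.77, Ctsh -0.37 and Ctsc -0.36.

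Among 7 genes for death ligands, lymphotoxins and their receptors, 1 was higher under anti-PD-1 at an unadjusted p under 0.05 and 1 was lower in COMB. The first was Fasl, whose ligand kills through Fas and which fell outside the naming rule at under 1 CPM. It had 2 and 2 counts in CTR, 8 and 3 in OAT-1746, 20 and 14 in anti-PD-1, and 4, 5 and 2 in COMB. The other was Tnf, with 123 and 151 CPM in CTR, 176 and 167 in OAT-1746, 94.98 and 150 in anti-PD-1, and 46.5, 43.2 and 36.9 in COMB. All 3 COMB libraries lay below the 6 others. Its log2 fold change in COMB against CTR was -1.70 (standard error 0.20), with an adjusted p of 0.184 in edgeR's quasi-likelihood test and 1.24e-08 in DESeq2. Under anti-PD-1 the log2 fold changes of Fas, Ltb and Tnfsf10 were 0.54, 0.49 and 0.30.

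Ifng encodes interferon gamma, the main macrophage-activating cytokine of NK and T cells (ENSMUSG00000055170, chr10:118441046-118445892). It had 12 and 4 counts in anti-PD-1 and 1 and 1 in OAT-1746, beside 4 and 3 in CTR and 6, 12 and 10 in COMB. The OAT-1746 libraries were the lowest, and every COMB library lay above both CTR libraries in CPM. In counts over library size, COMB exceeded OAT-1746 by a ratio of 11.4, with a 95% interval from counting error of 2.86 to 98.3. edgeR's quasi-likelihood test called this difference (log2 fold change 3.33, standard error 0.91, adjusted p = 0.0425), with each of the 3 COMB libraries above both OAT-1746 libraries. DESeq2 gave it no adjusted p. The log2 fold change without OAT-1746 replicate 2 was 3.33 (standard error 1.31), with an adjusted p of 0.222 in edgeR's quasi-likelihood test. Ifng passed the low-count filter only through 1 anti-PD-1 and 2 COMB libraries, so that the test ran on a gene kept through a group where it was high. The call was lost without the filter and when any library other than COMB replicate 1 was left out. Against CTR the ratios were 2.40 (0.933 to 6.89) for anti-PD-1 and 3.15 (1.34 to 8.54) for COMB. The former rests on anti-PD-1 replicate 1, without which the fitted log2 fold change was 0.114 in place of 1.28. Of 50-base words in the longest Ifng transcript, 13.5% also occur in Gm49751, an unconfirmed gene model on the same strand that overlaps Ifng and had 0 counts in all libraries. Pairs that fit both cannot be told from the counts.

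Interferon gamma is induced by cytokines and read by a receptor on other cells. Of 11 tested genes for its inducers and their receptors, 5 were higher under anti-PD-1 at an unadjusted p under 0.05 and 0 in COMB, where 1 was lower. Il2rb, a receptor chain for interleukin-2 and interleukin-15 that is also in the NK list, had a log2 fold change of 2.169 (standard error 0.49) under anti-PD-1, Il18rap 1.13, Il15 0.90 and Il12rb2 0.78. Il15 had 8.53 and 11.6 CPM in CTR, 15.3 and 10.5 in OAT-1746, 21.6 and 16.1 in anti-PD-1, and 10.1, 9.83 and 9.29 in COMB, so that the antibody groups did not overlap. Of 12 genes for the receptor and targets, 1 was higher under anti-PD-1 and 0 in COMB. Cxcl9, the most abundant, had 1362 and 917 CPM in CTR, 870 and 187 in OAT-1746, 530 and 1085 in anti-PD-1, and 735, 1518 and 1532 in COMB. Its log2 fold changes of -0.50 under anti-PD-1 and 0.15 in COMB had standard errors of 0.65 and 0.59. Socs1, a feedback inhibitor of this signal, had 1.08 and 0.59, Cxcl10 0.66 and -0.27, and Gbp2 0.46 and 0.44.

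Tbx21 encodes T-bet, the T-box factor of NK cells and type 1 lymphocytes (ENSMUSG00000001444, chr11:97098071-97115331). Its level was 1.201 and 0.471 CPM in CTR, 1.46 and 2.06 in OAT-1746, 5.64 and 4.40 in anti-PD-1, and 1.04, 1.39 and 0.851 in COMB. Anti-PD-1 stood above all other libraries, and COMB lay within or close to the range of CTR. The difference between COMB and anti-PD-1 was -2.19 on the log2 scale (standard error 0.42), with an adjusted p of 0.424 in edgeR's quasi-likelihood test and 0.00408 in DESeq2. All 3 COMB libraries were below both anti-PD-1 libraries. Leaving out any library kept this difference between -2.40 and -2.001. Tbx21 did not follow the granule genes closely. Its r with Gzma, Gzmb, Prf1 and Nkg7 lay between 0.417 and 0.550 over the 9 libraries. In OAT-1746 replicate 2, where the 4 granule genes were lowest, Tbx21 had 36 counts, more than in any CTR or COMB library.

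Eomes encodes eomesodermin, the related T-box factor of mature NK and memory T cells (ENSMUSG00000032446, chr9:118478212-118486132). It had 1 and 7 counts in CTR, 22 and 7 in OAT-1746, 33 and 28 in anti-PD-1, and 17, 24 and 18 in COMB. All 5 antibody libraries lay above both CTR libraries, and OAT-1746 replicate 1 reached 1.28 CPM, the level of COMB. In counts over library size, anti-PD-1 exceeded CTR by a ratio of 7.99 (3.81 to 19.3) and COMB by 5.81 (2.76 to 14.1), by counting error alone. Leaving out a CTR library moved the fitted log2 fold change further, from 2.209 without replicate 1 to 4.829 without replicate 2 for anti-PD-1, and from 1.745 to 4.343 for COMB. The log2 fold change of COMB against anti-PD-1 was -0.49 (standard error 0.60), and the antibody groups overlapped, unlike those of Tbx21. The difference between the genes was not tested. Neither CTR library reached the low-count filter's cutoff, so that Eomes was tested only through treated libraries.

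Among 13 other tested transcription factors of effector lymphocytes, 2 were higher under anti-PD-1 and 1 in COMB at an unadjusted p under 0.05, and 1 was lower in COMB. Zfp683, which encodes Hobit, had 0 counts in all libraries. Ikzf3, which encodes Aiolos, had 0.541 and 0.353 CPM in CTR, 0.466 and 1.03 in OAT-1746, 3.76 and 2.31 in anti-PD-1, and 1.48, 0.858 and 0.993 in COMB. Its log2 fold change under anti-PD-1 was 2.74 (standard error 0.58, DESeq2 adjusted p = 0.0401). Tcf7, Klf2 and Stat4 had 1.505, 1.15 and 0.64. Klf2 was the most abundant of the list and highest in OAT-1746 replicate 2 (1235 CPM, against 212 to 529 in the CTR, anti-PD-1 and COMB libraries).

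The 3 serpin genes lie on the forward strand of chromosome 13 within 76.7 kb, with no other protein-coding gene between them. A gap of 24.2 kb separates Serpinb6b (ENSMUSG00000042842, chr13:32965209-32979067) from Serpinb9 (ENSMUSG00000045827, chr13:33003250-33017957), and 9.46 kb lie between Serpinb9 and Serpinb9b (ENSMUSG00000021403, chr13:33027416-33041884). Their levels differed despite this position. Serpinb9, the mouse counterpart of human PI-9 and an inhibitor of granzyme B, had 38.9 and 36.9 CPM in CTR, 42.5 and 37.3 in OAT-1746, 44.2 and 48.6 in anti-PD-1, and 34.6, 52.5 and 47.6 in COMB. Its highest library was only 1.52-fold above its lowest, whereas Gzmb spanned 16.4-fold and Prf1 16.6-fold. The COMB libraries enclosed those of every other group. The log2 fold changes of Serpinb9 were 0.29 under anti-PD-1 (standard error 0.20) and 0.24 in COMB (standard error 0.18). The ratio of Gzmb to Serpinb9 CPM was accordingly 0.315 and 0.247 in CTR, 0.540 and 0.0966 in OAT-1746, 1.34 and 0.742 in anti-PD-1, and 0.379, 0.687 and 0.830 in COMB.

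Serpinb6b, which encodes an inhibitor of granzyme A, had 9.08 and 4.81 CPM in the OAT-1746 libraries. It stood at 4.87 and 5.23 in CTR, 15.7 and 11.7 in anti-PD-1, and 9.64, 11.6 and 12.8 in COMB. The OAT-1746 libraries thus bracketed those of CTR, and the lowest antibody library exceeded OAT-1746 replicate 1 by 9.64 against 9.08 CPM. For antibody against no antibody its log2 fold change was 1.07 (standard error 0.21), with an adjusted p of 0.164 in edgeR's quasi-likelihood test and 0.00166 in DESeq2, and it was 0.886 without OAT-1746 replicate 2. It followed the 4 granule genes, with r from 0.896 for Prf1 to 0.955 for Nkg7 over the 9 libraries. Its r with Eomes was 0.913. Gzma per unit of Serpinb6b was 3.28 and 3.18 in CTR, 2.61 and 1.58 in OAT-1746, 6.72 and 4.25 in anti-PD-1, and 2.42, 4.55 and 4.24 in COMB.

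Serpinb9b, a close relative of Serpinb9, had 25 and 11 counts in OAT-1746, 42 and 33 in anti-PD-1, and 10, 22 and 30 in COMB, against 3 and 0 in CTR. In counts over library size, anti-PD-1 exceeded CTR by a ratio of 26.2 (8.63 to 130), COMB by 16.3 (5.31 to 81.0) and OAT-1746 by 11.7 (3.68 to 59.1), by counting error alone. COMB and OAT-1746 overlapped, with a ratio of 1.40 (0.912 to 2.168), and the fitted log2 fold change between them was 0.47 with OAT-1746 replicate 2 and -0.002 without it. Serpinb9b was the only one of the 10 genes with an unadjusted p under 0.05 in edgeR between OAT-1746 and CTR with all libraries, and its adjusted p there was 0.0745 in edgeR's quasi-likelihood test and 0.0155 in DESeq2. Without OAT-1746 replicate 2 the log2 fold change was 3.92, and without replicate 1 it was 2.71. Leaving out a CTR library moved it further, to 2.471 without replicate 2 and 7.053 without replicate 1. For anti-PD-1 against CTR these values were 3.662 and 8.232, and for COMB against CTR 2.944 and 7.531. CTR held 3 counts in all, so that these fitted values set no bound. Neither CTR library reached the low-count filter's cutoff, so that Serpinb9b was tested only through groups where it was high.

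Reads shared with paralogs could touch a small part of these genes. Of the 50-base words in the longest transcript, 0.38% of those of Serpinb9 occur in Serpinb9b, 0.499% of those of Serpinb9b occur in Serpinb9 or a pseudogene, and 3.12% of those of Serpinb6b occur in Serpinb6a, Serpinb6c or a pseudogene. None of the words of Gzma, Gzmb, Prf1, Nkg7 and Tbx21 occurs in another gene, and 0.285% of those of Eomes do. Of 24 other clade B serpin genes found, 15 had 0 counts in all 9 libraries, among them Serpinb9c, Serpinb9d, Serpinb9e, Serpinb9f and Serpinb9g of the same cluster. Of the 6 tested, 1 was higher under anti-PD-1 and 1 in COMB at an unadjusted p under 0.05, with median log2 fold changes of 0.46 and 0.05. Serpinb1a had log2 fold changes of 0.89 and 1.07 (standard errors 0.38 and 0.36), Serpinb2 1.00 and -0.88, Serpinb8 0.45 and -0.41, and Serpinb6a 0.08 and 0.36. Serpinb8 was the most abundant of them.

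**Figure D4:**
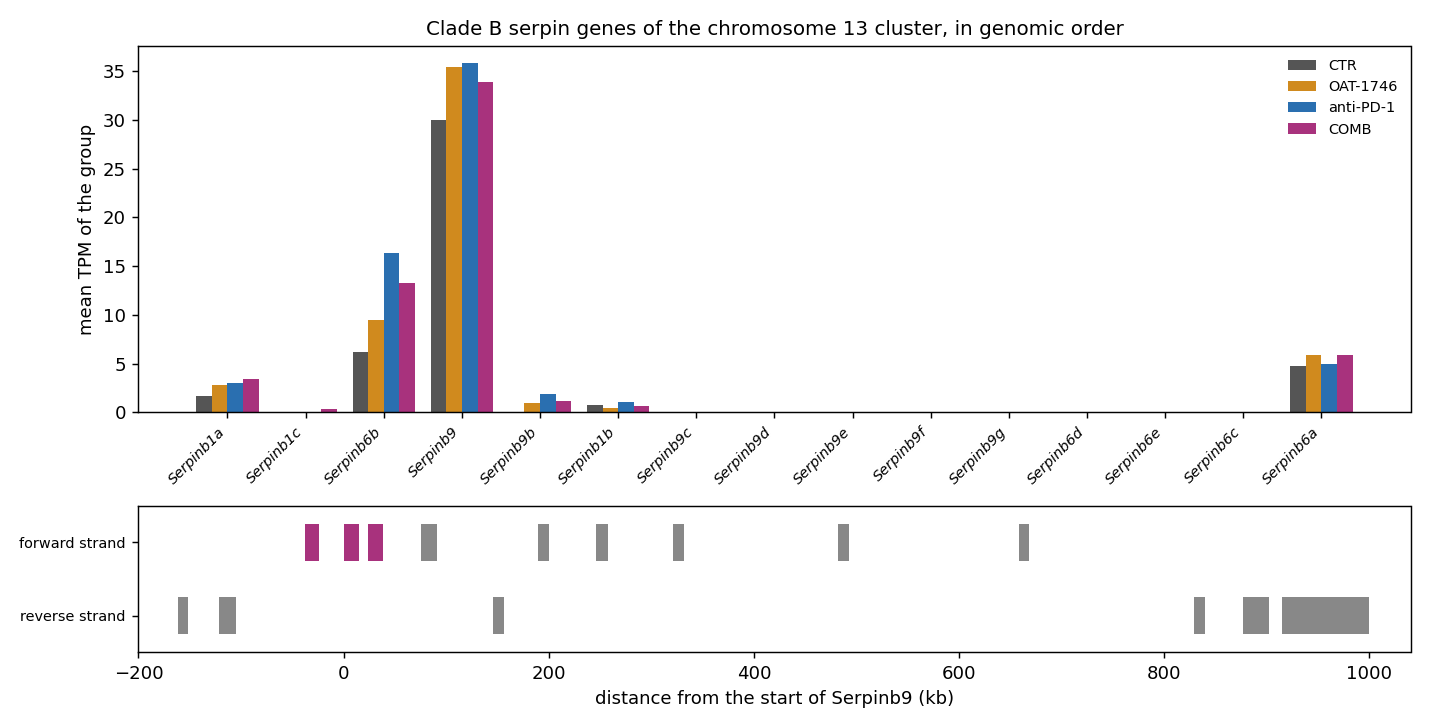
Mean TPM in each group of the clade B serpin genes of the chromosome 13 cluster, in genomic order (upper panel), and their position and strand by distance from the start of Serpinb9 in kb (lower panel, Serpinb6b, Serpinb9 and Serpinb9b in purple). Serpinb9 had 29.95 to 35.8 TPM in all groups, Serpinb6b 6.16 to 16.3 and Serpinb9b 0.0743 to 1.92.

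The genes most similar to the mean profile of Gzma, Gzmb, Prf1 and Nkg7 were found by Pearson's r of log2 CPM over the 9 libraries, among 11418 tested genes other than the 10 with at least 1 CPM on average. They were Lck (r = 0.979), Sh2d2a (0.979), Il2rb (0.970), Klra4 (0.970), Igtp (0.963), Slc52a3 (0.954), Eno3 (0.949), Pkp3 (0.944), Parp10 (0.942) and Ccnd3 (0.941). The libraries share groups and the genes were selected for r, so that these values describe the libraries and carry no p. Spearman's rho was 1 for Lck and Sh2d2a and lowest for Eno3 (0.85). Without OAT-1746 replicate 2 and anti-PD-1 replicate 1, the libraries farthest from the median, r was 0.952 for Lck, 0.963 for Sh2d2a and 0.834 for Ccnd3. Lck encodes a kinase of T and NK cell receptor signaling, and Klra4 an NK cell receptor. Igtp, an interferon-inducible GTPase, was more abundant, with 153 and 138 CPM in CTR, 152 and 93.3 in OAT-1746, 288 and 250 in anti-PD-1, and 150, 280 and 282 in COMB.

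Outside the 10 genes, Serpinb6b was most similar to Slc52a3 (r = 0.953), Dynlt1c (0.940) and Klre1 (0.939), and Serpinb9b to Klre1 (0.929), Hist3h2a (0.924) and Ptprcap (0.918). Klre1, an NK cell receptor gene, was thus near both, and Slc52a3 was also among the genes most similar to the granule genes. Serpinb9 was most similar to Hilpda (0.943), Mon1a (0.914) and Fbxo7 (0.905), none of them on the NK list. Its r with the 4 granule genes lay between 0.727 and 0.775.

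**Figure D5:**
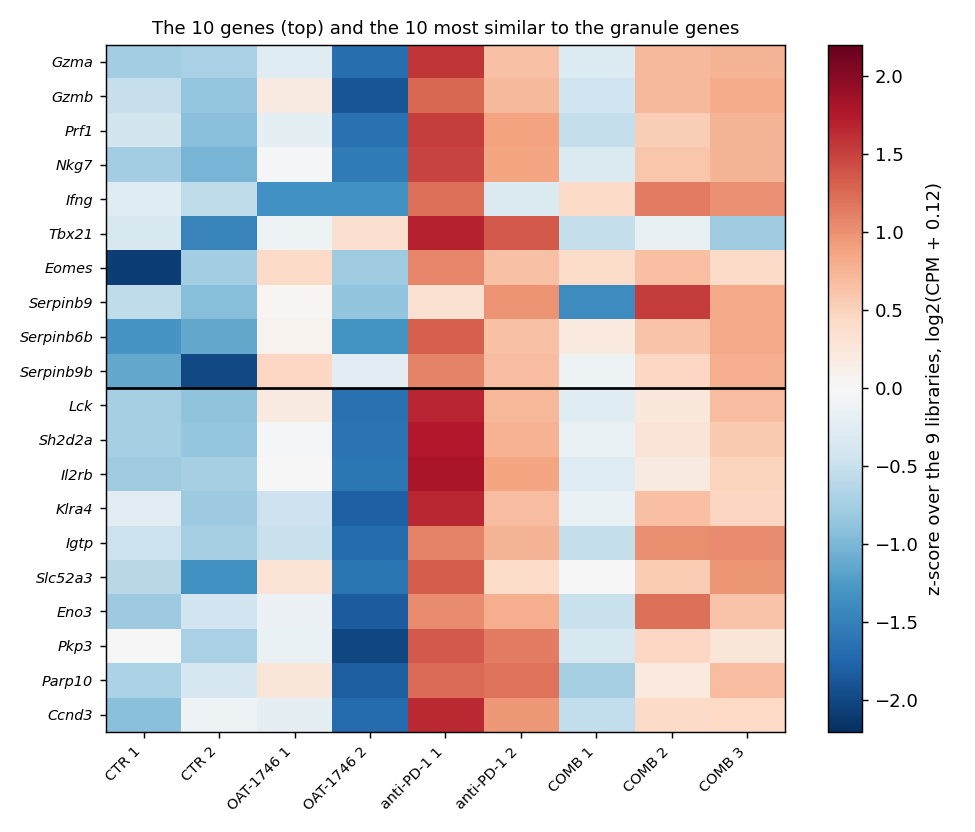
Heat map of z-scores over the 9 libraries (columns) of log2 CPM for the 10 genes (above the line) and the 10 genes most similar to the mean profile of Gzma, Gzmb, Prf1 and Nkg7 (below it). OAT-1746 replicate 2 was lowest and anti-PD-1 replicate 1 highest for the 4 granule genes, whereas Tbx21 was high in anti-PD-1 alone.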

How the data were processed

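CD11b+ cells of 9 libraries (2 CTR, 2 OAT-1746, 2 anti-PD-1, 3 COMB) were analysed. The authors deposited raw counts per gene, made from read pairs with Trimmomatic 0.36, STAR 2.6.1b on mm10, Picard 2.17.1 and HTSeq 0.11.1 in reverse stranded mode at a mapping quality of at least 10. Replicate 2 of anti-PD-1 carries a treatment label with another target and was grouped by its title. Identifiers were matched to GENCODE M21 (53620 of 53801). In R 4.3.3, edgeR 4.0.16 fitted 12538 protein-coding genes kept by filterByExpr (minimum count 10), with TMM scaling, a quasi-likelihood model of 4 group means and Benjamini-Hochberg adjustment over all genes. A gene was called at an adjusted p under 0.05. Of the 10 genes, Ifng, Eomes, Tbx21 and Serpinb9b were under the filter's 0.609 CPM in at least 1 library, and Ifng, Eomes and Serpinb9b in both CTR libraries, so that passing the filter is no support for a difference. DESeq2 1.42.0 was run on the same genes. Other settings tried were other scalings, filters, gene types, a replicate block, robust estimation, fits of only the groups compared, and leaving out each library. CPM are TMM-normalized, and TPM use the union of exons. Log2 CPM for correlations used a prior count of 2. Intervals are 95% exact binomial intervals of counts and cover counting error only, and standard errors come from the quasi-likelihood F. Most genes beside the 10 were named by rule. The rule took up to 4 per list with the largest fold change between anti-PD-1 and CTR at a mean of at least 1 CPM. It also took the most abundant gene of a list, those at 0 and the most similar genes. Others, such as Cd3e, Trac, Fasl, Ncr1 and Klrb1c, were named outside the rule, and not every gene that met it is named. The 10 genes and the lists were chosen with earlier results of these data known. The steps were tested on simulated data. Python 3.11.15 and matplotlib 3.10.9 drew the plots.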

Additional observations from a re-analysis of the deposited data

Results flagged for a closer look

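The effect of OAT-1746 differed with and without the antibody for 2 of the 10 genes by DESeq2's interaction test, against 8.18% of all genes, and for 0 by edgeR's, against 0.359%. Without OAT-1746 replicate 2 the interaction had an unadjusted p under 0.05 for 7 of the 10, all negative, against 9.22% of all genes with a negative one. Without OAT-1746 replicate 1, 4 of the 10 interaction estimates lay above 0, among them those of Gzma, Gzmb and Prf1. For Tbx21 the interaction was -3.26 on the log2 scale (standard error 0.66, adjusted p = 0.0719 in edgeR and 0.00133 in DESeq2). COMB minus anti-PD-1 was -2.19, with all 3 COMB libraries below both anti-PD-1 libraries, as for 16.4% of all genes. OAT-1746 minus CTR was 1.07, with both OAT-1746 libraries above both CTR libraries. That gap was narrow, with 25 counts in OAT-1746 replicate 1 and 20 in CTR replicate 1. Neither its counting error nor the share of all genes with such an order was worked out, so that this order is descriptive. Without OAT-1746 replicate 2 the Tbx21 interaction was -2.97 and OAT-1746 minus CTR was 0.808. Leaving out any library kept the interaction between -4.06 and -2.72. For Serpinb9b the interaction was -4.15 (standard error 1.196, adjusted p = 0.108 in edgeR and 0.0197 in DESeq2), with COMB minus anti-PD-1 at -0.72 and OAT-1746 minus CTR at 3.43. The latter rests on 3 counts in CTR, and Serpinb9b passed the low-count filter through treated libraries alone. Its interaction was -4.62 without OAT-1746 replicate 2, and ran from -7.754 without CTR replicate 1 to -3.189 without CTR replicate 2. Run on all protein-coding genes, DESeq2 gave the Serpinb9b interaction no adjusted p.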

How the results depend on the processing

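The sign of every estimate for anti-PD-1 against CTR and for antibody against no antibody held in all settings, and 17 of 1279 values for the 10 genes changed sign. Counts of calls depended on the tool, on the filter and on single libraries of every group, and the cause was not tested. With a lone library left in a group, that library is assumed to vary like those of other groups. Ranges below run from the lowest to the highest value with 1 library left out. DESeq2 on all protein-coding genes was added after seeing the data and is given second.

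Genes called by edgeR, then by DESeq2 in its 2 forms, were 0, 14 and 11 for anti-PD-1 against CTR. For COMB against CTR they were 0, 35 and 37, with 2 without the filter and 5 when only the groups compared were fitted. For OAT-1746 against CTR they were 0, 1996 and 1925, with 587 without the filter and 0 to 3617 with a library left out. For COMB against OAT-1746 they were 1979, 3062 and 3017, with 30 for only the groups compared and 5 to 4033 with a library left out. For COMB against anti-PD-1 they were 0, 47 and 45, with 2 without the filter, 2 for only the groups compared and 0 to 52 with a library left out. For antibody against no antibody they were 1, 334 and 305, with 9 without the filter and 0 to 1478 with a library left out. For the interaction they were 45, 1025 and 984, with 24 by library size only, 146 without the filter, 18 with all gene types and 0 to 2734 with a library left out.

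Of the 10 genes, edgeR and the 2 forms of DESeq2 called 0, 5 and 4 for anti-PD-1 against CTR, and 0, 1 and 1 for COMB against CTR, for OAT-1746 against CTR and for COMB against anti-PD-1. For antibody against no antibody they called 0, 6 and 6 (0 to 7 with a library left out), and for the interaction 0, 2 and 1 (1 without the filter, 0 to 1 with a library left out). For COMB against OAT-1746 they called 1, 2 and 2, with 0 without the filter, at 10 counts in every library or for only the groups compared, and 0 to 5 with a library left out. The 7, 1 and 5 with a library left out came without OAT-1746 replicate 1, when replicate 2 stands alone. In that fit edgeR called 1478, 2734 and 4033 of all 12847 genes in these comparisons.

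Estimates that changed sign did so for Gzma, OAT-1746 against CTR (-0.06, 0.007 by library size only, -1.104 to 0.55 with a library left out), Gzmb (0.31, -1.57 to 1.113), Prf1 (-0.08, -1.302 to 0.578), Nkg7 (0.34, -0.78 to 0.979), Serpinb6b (0.46, -0.076 to 0.857) and Serpinb9 (0.07, -0.028 to 0.175). The interaction did so for Gzma (-0.78, -1.373 to 0.267), Gzmb (-0.997, -1.78 to 0.888), Prf1 (-1.02, -1.66 to 0.204) and Serpinb9 (-0.12, -0.249 to 0.03). COMB against anti-PD-1 did so for Ifng (0.33, -0.352 to 1.496) and Serpinb9 (-0.05, -0.176 to 0.113), COMB against OAT-1746 for Serpinb9b (0.47, -0.002 to 1.192) and COMB against CTR for Tbx21 (0.39, -0.138 to 1.229).

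The labels link replicates of different groups by number alone. Whether libraries with the same number were handled together is not stated. With this number as a replicate block, edgeR called 2 genes for COMB against OAT-1746, 0 for antibody against no antibody and 0 for the interaction, and 0 of the 10 genes in any comparison. Correlations of the deviations of libraries with the same number lay between -0.349 and 0.0999. In groups of 2 libraries the deviations mirror each other, so that these values cannot decide whether numbers mark shared handling. At 10 counts in every library 6 of the 10 genes are left, and fitting only the groups compared gives no value for antibody against no antibody or for the interaction.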

Other observations

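The ratio of Gzma to Prf1 CPM was 1.93 and 3.18 in CTR, 2.37 and 2.77 in OAT-1746, 2.32 and 1.92 in anti-PD-1, and 3.11, 2.74 and 2.35 in COMB, so that each group overlapped with CTR, and anti-PD-1 lay just below COMB. The ratio of Gzma to Gzmb was lowest in OAT-1746 replicate 1 (1.03) and highest in OAT-1746 replicate 2 (2.11), and the CTR, anti-PD-1 and COMB libraries lay between them, from 1.30 to 1.83. The ratio of Gzmb to Prf1 was 1.48 and 1.74 in CTR, 2.29 and 1.31 in OAT-1746, 1.30 and 1.39 in anti-PD-1, and 1.75, 1.87 and 1.71 in COMB, so that anti-PD-1 lay below CTR and COMB without overlap. No test was made on these ratios.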
